A study of Mus musculus with 12 samples.

Results

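The enteroendocrine hormone genes described here are Gcg, Pyy, Cck, Sct, Nts, Gip, Ghrl, Sst, Tac1 and Chga, 10 of the 54838 genes counted in the mouse ileum. They were taken by symbol, through the Ensembl identifier of each row, and not by a cut-off on their values. Earlier results of these data were known when they were chosen. All 10 passed the filter on low counts that left 15938 genes for testing. The ileum of C57BL/6J mice was profiled by bulk RNA-seq in 4 groups of 3 mice: water + PBS, water + Dex, ZnSO4 + PBS and ZnSO4 + Dex. The mice were females, 8 to 14 weeks old, with no genetic change given. They drank normal water or 25 mM ZnSO4 for 7 days, were then injected intraperitoneally with PBS or with 200 µg of dexamethasone (Dex), a synthetic glucocorticoid, and were sampled 2 h later. The study asked whether zinc changes what glucocorticoids do to transcription in the gut. Over the PBS and Dex mice together, zinc raised the metallothionein genes Mt1 and Mt2 and lowered Slc39a4, which encodes the intestinal zinc importer, and Dex raised 7 of 7 classical glucocorticoid-induced genes, namely Ddit4, Fkbp5, Tsc22d3, Zbtb16, Pdk4, Per1 and Sgk1, the last of which also rose with zinc. Mt1 in turn rose with Dex over the water and zinc mice together, by 0.64 ± 0.17 on the log2 scale, with an edgeR adjusted p of 0.020. The libraries held 10760132 to 11827487 counts each.

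Enteroendocrine cells are rare hormone-secreting cells scattered through the gut epithelium. They sense nutrients and other contents of the lumen and release peptides to the blood, to nearby cells and to nerve endings, and the mixture of peptides that a cell makes depends on its place along the gut and between crypt and villus. L cells make glucagon-like peptides and peptide YY and are frequent in the ileum, N cells make neurotensin, S cells secretin, D cells somatostatin, I cells cholecystokinin, K cells GIP and X cells ghrelin, whereas enterochromaffin cells make serotonin together with substance P. Since RNA was taken from the ileum as a whole, fewer cells of a type and less RNA per cell cannot be told apart in these data. Enteric neurons also make substance P and somatostatin, so that their markers are given below beside the hormone genes.

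In GENCODE M21 on GRCm38, the build the study mapped to, each of the genes is protein coding and multi-exonic. Gcg (ENSMUSG00000000394) lies at chr2:62474530-62483650 on the minus strand, Pyy (ENSMUSG00000017311) at chr11:102106676-102107832 on the minus strand, Sct (ENSMUSG00000038580) at chr7:141278330-141279133 on the minus strand, Nts (ENSMUSG00000019890) at chr10:102481756-102490486 on the minus strand and Sst (ENSMUSG00000004366) at chr16:23889573-23890958 on the minus strand. Tac1 (ENSMUSG00000061762) lies at chr6:7554879-7565834 and Chga (ENSMUSG00000021194) at chr12:102554969-102565028, both on the plus strand. Cck (ENSMUSG00000032532) is at chr9:121489824-121495694 on the minus strand, Gip (ENSMUSG00000014351) at chr11:96024545-96030831 on the plus strand and Ghrl (ENSMUSG00000064177) at chr6:113716119-113719880 on the minus strand. Only Ghrl shared exonic bases with other genes: 15.9% of them overlapped the opposite-strand genes Gm26982 and Gm44033, and the strand setting of the counting is not given in the sources used here, which makes its counts uncertain.

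The windows of 250 bases before the RefSeq start (GRCm38.p6) were read for all 10 genes, and they are shown for the L cell genes Gcg and Pyy, for Sct and for Chga, whose levels moved with zinc or with Dex as described below. The windows of Nts, Sst and Tac1 reach 68, 114 and 182 bases into the gene as GENCODE draws it and are not printed. Capitals mark the E-box CANNTG, the letters bound by helix-loop-helix factors such as NeuroD1 of the enteroendocrine lineage, and in Chga also the metal response core that MTF1, the zinc-sensing factor, recognises. Each sequence is written 5′ to 3′ on the strand of its gene, with Gcg at chr2:62483654-62483903 (minus), Pyy at chr11:102107833-102108082 (minus), Sct at chr7:141279134-141279383 (minus) and Chga at chr12:102554691-102554940 (plus).
Gcg: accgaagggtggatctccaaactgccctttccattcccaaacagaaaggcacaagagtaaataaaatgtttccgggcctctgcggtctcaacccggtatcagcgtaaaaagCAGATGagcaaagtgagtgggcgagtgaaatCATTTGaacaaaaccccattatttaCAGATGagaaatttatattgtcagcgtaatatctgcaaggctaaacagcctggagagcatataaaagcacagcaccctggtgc
Pyy: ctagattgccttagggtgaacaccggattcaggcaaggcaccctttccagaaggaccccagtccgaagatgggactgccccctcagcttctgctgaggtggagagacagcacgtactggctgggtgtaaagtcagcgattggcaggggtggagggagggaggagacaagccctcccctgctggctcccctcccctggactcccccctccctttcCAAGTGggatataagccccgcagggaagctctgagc
Sct: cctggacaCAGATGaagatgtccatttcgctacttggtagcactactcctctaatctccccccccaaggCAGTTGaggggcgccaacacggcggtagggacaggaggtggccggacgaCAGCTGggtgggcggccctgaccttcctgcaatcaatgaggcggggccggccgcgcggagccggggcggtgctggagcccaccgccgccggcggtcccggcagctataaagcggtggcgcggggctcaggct
Chga: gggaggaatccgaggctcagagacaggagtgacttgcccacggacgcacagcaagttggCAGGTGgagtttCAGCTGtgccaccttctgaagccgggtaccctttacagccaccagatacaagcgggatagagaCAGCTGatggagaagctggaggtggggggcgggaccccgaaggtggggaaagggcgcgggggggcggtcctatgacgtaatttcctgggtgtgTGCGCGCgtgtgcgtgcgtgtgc
All 10 windows held an E-box, as did 66.2% of the 32851 RefSeq windows of the same length. The metal response core, TGCACNC or TGCGCNC, was found in the windows of Sst and Chga and in 21.4% of all windows. In Chga it began 23 bases before the start. The 6 bases AGAACA that make up a single arm of a glucocorticoid response element were found upstream of Ghrl and in 16.1% of all windows. The full element with both arms was in none of the 10 windows and in 0.00913% of all windows. The cyclic AMP element TGACGTCA, present in 1.55% of all windows, was found in that of Sst alone among the 10, 48 bases before the start. All motifs were searched on both strands, no marked match overlapped another, and a match describes letters in a window, not a bound site.

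The hormone genes covered a wide range of levels. In library-scaled counts per kilobase of exon (CPM per kb), averaged over the 12 libraries, Nts was highest at 91.0, followed by Sct at 60.5, Gcg at 50.6, Pyy at 35.9, Sst at 34.6 and Chga at 18.3. Tac1 at 4.38, Gip at 3.95, Cck at 2.54 and Ghrl at 1.90 were far lower. On this per-length scale Nts exceeded Sct in 12 of 12 libraries, Gcg exceeded Pyy in 12, Sst exceeded Chga in 12 and Chga exceeded Tac1 in 12, whereas Sct exceeded Gcg in 11. The order of other neighbours was less fixed. Pyy exceeded Sst in 7 of 12 libraries, Tac1 exceeded Gip in 8, Gip exceeded Cck in 10 and Cck exceeded Ghrl in 9. The plot of levels per exon length shows a group of 6 genes above the other 4.

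**Figure D1:**
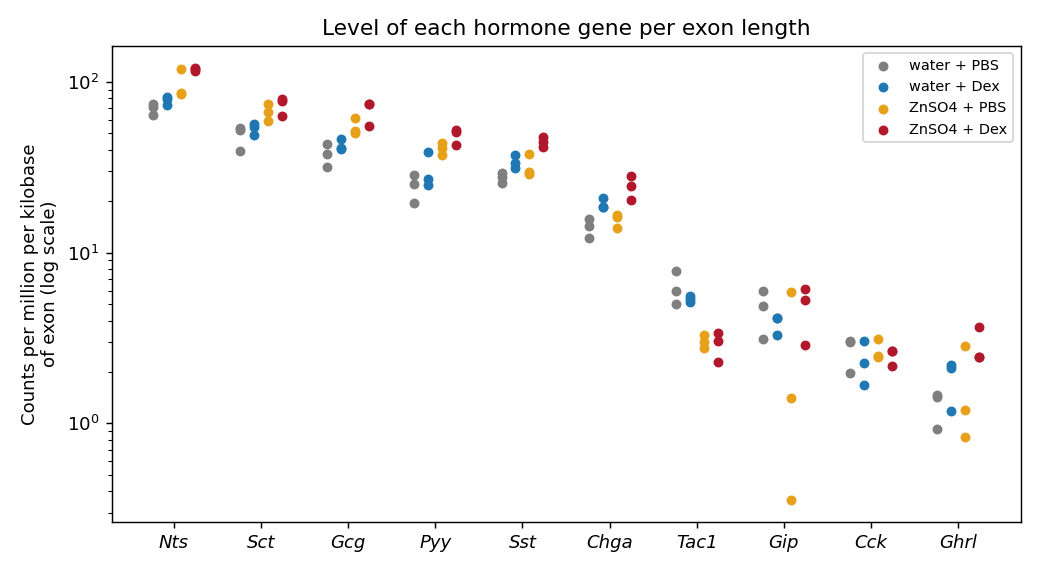
Level of each hormone gene in each of the 12 libraries, in CPM per kb of exon on a log axis, coloured by group, with genes ordered by their mean. The 6 genes on the left average 18.3 or more and the 4 on the right average 4.38 or less.

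Zinc raised genes of several hormones, with those of the L cell among them, and lowered Tac1. Averaged over PBS and Dex mice, 5 of the 10 hormone genes were higher with ZnSO4 at an adjusted p under 0.05 (Gcg, Pyy, Nts, Sct and Sst), against 6.24% of all genes tested, and 1 was lower (Tac1), against 6.52%. At an unadjusted p under 0.05, 6 of the 10 were higher, against 14.3% of all genes, and 1 was lower, against 14.1%. Of the 10, only Tac1 also passed the fold cut-off of 0.8, against 2.71% of all genes in either direction. The median log2 fold change of the hormone genes was 0.38, beside -0.0046 over all genes tested, and 8 of 10 lay above 0, as did 49.1% of all genes.

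Gcg encodes proglucagon, which L cells cut into the glucagon-like peptides GLP-1 and GLP-2. Its normalised counts were 737, 541 and 646 in the water + PBS mice, 687, 791 and 695 in the water + Dex mice, 857, 879 and 1042 in the ZnSO4 + PBS mice and 944, 1256 and 1254 in the ZnSO4 + Dex mice. All 6 zinc mice lay above all 6 water mice. Such a separation of 6 libraries from 6 upwards was met in 2.36% of all genes tested. The averaged zinc effect on Gcg was a log2 fold change of 0.60 ± 0.098 (SE), or 1.51-fold, with an edgeR adjusted p of 0.0023.

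Pyy encodes peptide YY, the satiety and gut-slowing peptide that L cells release with the glucagon-like peptides. It counted 140, 206 and 181 in water + PBS mice, 279, 194 and 179 in water + Dex mice, 293, 266 and 314 in ZnSO4 + PBS mice and 306, 364 and 374 in ZnSO4 + Dex mice. A single water + Dex mouse, at 279, reached above the lowest zinc mouse, at 266. Its averaged zinc effect was the largest increase of the 10 genes, 0.70 ± 0.13 on the log2 scale, or 1.63-fold, with an edgeR adjusted p of 0.0042.

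Nts, the gene of neurotensin, which slows motility and promotes fat uptake, had the highest level. It counted 904, 1059 and 1015 in water + PBS mice, 1160, 1129 and 1046 in water + Dex mice, 1689, 1211 and 1224 in ZnSO4 + PBS mice and 1694, 1724 and 1647 in ZnSO4 + Dex mice. Again all zinc mice lay above all water mice, although in the ZnSO4 + PBS group a single mouse stood well above the other two. The averaged zinc effect was 0.54 ± 0.084, or 1.45-fold, with an edgeR adjusted p of 0.0018.

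Sct encodes secretin, which drives bicarbonate secretion. It counted 288, 382 and 395 in water + PBS mice, 415, 361 and 399 in water + Dex mice, 492, 436 and 547 in ZnSO4 + PBS mice and 463, 581 and 564 in ZnSO4 + Dex mice, with no overlap between zinc and water mice. The averaged effect was 0.46 ± 0.096, or 1.38-fold, with an edgeR adjusted p of 0.0092. Sst, the gene of somatostatin, the general inhibitor of gut hormone release, moved less with zinc. It rose by 0.31 ± 0.083, with an edgeR adjusted p of 0.034, its zinc and water mice overlapped, and the adjusted p stayed under 0.05 in only 5 of the 12 fits that left out 1 library, reaching 0.066.

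Tac1 was the exception. It encodes the precursor of substance P and neurokinin A, peptides of enterochromaffin cells and of enteric neurons that contract the gut. It counted 304, 231 and 194 in water + PBS mice, 206, 198 and 216 in water + Dex mice, 127, 107 and 116 in ZnSO4 + PBS mice and 88.1, 118 and 130 in ZnSO4 + Dex mice. The highest zinc mouse, at 130, lay below the lowest water mouse, at 194. A separation downwards was met in 2.62% of all genes. The averaged zinc effect was -0.97 ± 0.13 on the log2 scale, 1.96-fold lower, with an edgeR adjusted p of 0.00057.

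Chga encodes chromogranin A, a granule protein common to most enteroendocrine cells. With zinc it reached 0.24 ± 0.091, with an edgeR adjusted p of 0.11. For the 3 genes of lowest level no zinc effect was detectable at this depth: Ghrl was at 0.49 ± 0.30, Cck at 0.047 ± 0.17 and Gip at -0.28 ± 0.45, with edgeR adjusted p-values of 0.31, 0.89 and 0.72.

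**Figure D2:**
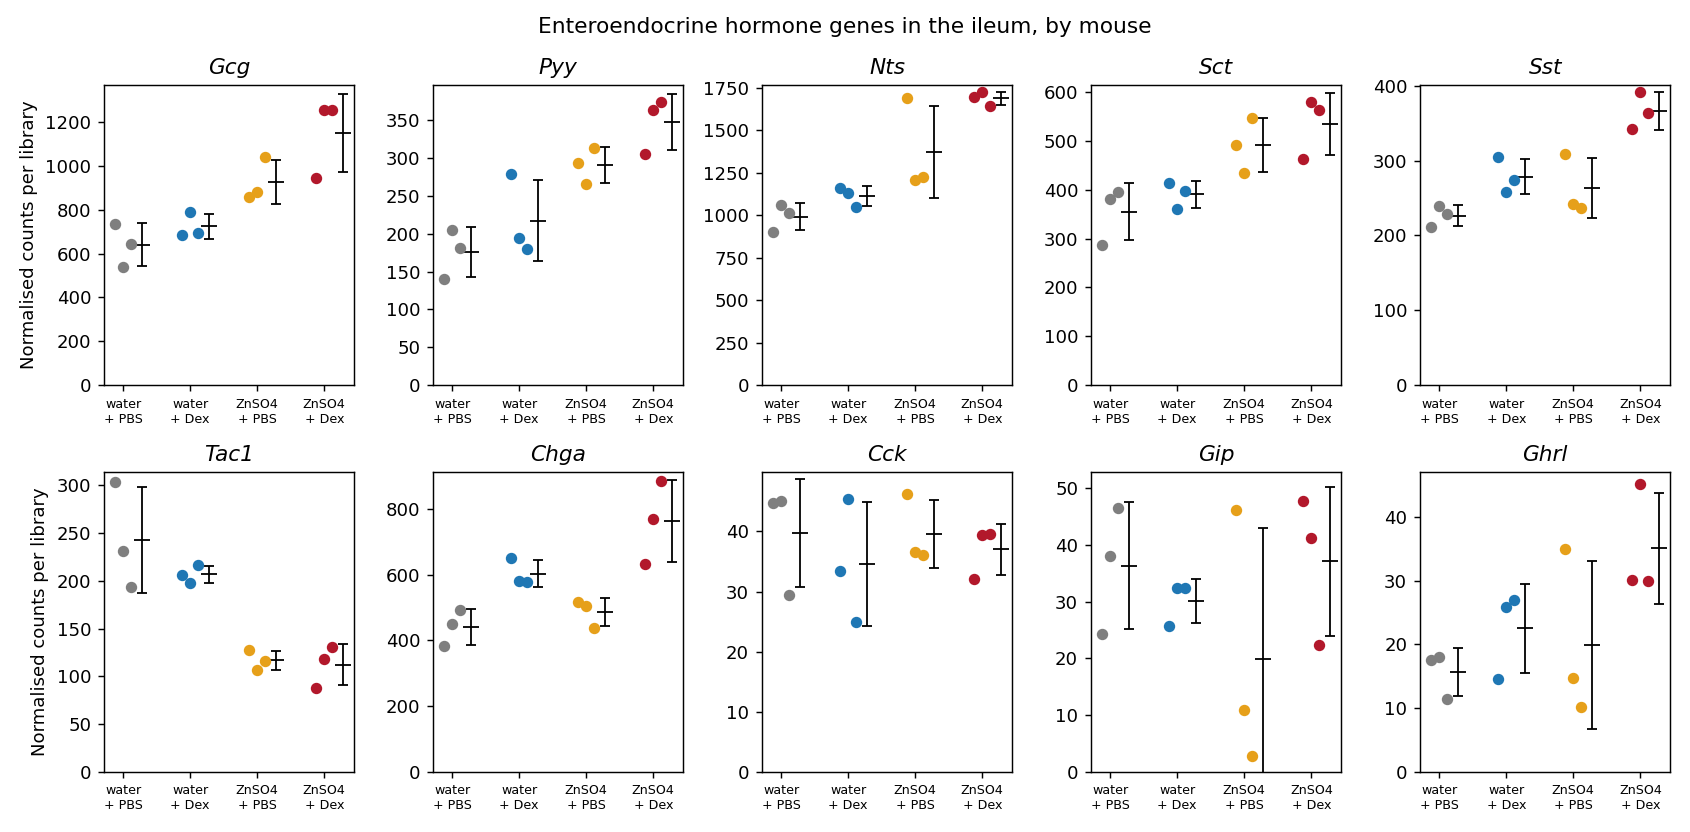
Normalised counts of the 10 hormone genes in each mouse (points) with the group mean and SD (bars, 3 mice a group), each panel on its own linear axis from 0. The lower end of the Gip bar in ZnSO4 + PBS mice runs off the axis. Gcg, Nts and Sct lie higher in all zinc mice and Tac1 lower, and Chga lies higher in all Dex mice.

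Within each injection group fewer mice enter the comparison. In PBS mice, zinc against water, 3 of the 10 genes passed an adjusted p of 0.05, against 4.66% of all genes, and 1 of these, Tac1, also passed the fold cut-off, against 1.70%. Tac1 fell by 1.06 ± 0.18 on the log2 scale, Pyy rose by 0.73 ± 0.18 and Nts by 0.47 ± 0.12, with edgeR adjusted p-values of 0.0077, 0.042 and 0.047. Gcg, at 0.53 ± 0.14, and Sct, at 0.47 ± 0.14, missed the threshold with 0.052 and 0.074. The calls of Pyy and Nts were marginal: they held in 4 and 2 of the 12 fits that left out 1 library, and Tac1 held in 12. Tac1 was the only gene that passed without water + PBS replicate 1 or 3, water + Dex replicate 2, ZnSO4 + PBS replicate 3 or ZnSO4 + Dex replicate 3.

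In Dex mice, zinc against water, 3 of the 10 genes passed again, against 4.37% of all genes, and Tac1 alone was past the fold cut-off, against 1.90%. Tac1 fell by 0.88 ± 0.18, Gcg rose by 0.67 ± 0.14 and Nts by 0.60 ± 0.12, with edgeR adjusted p-values of 0.018, 0.019 and 0.015. Pyy at 0.68 ± 0.18, Sst at 0.39 ± 0.12 and Sct at 0.45 ± 0.14 had edgeR adjusted p-values of 0.056, 0.088 and 0.089. These counts leaned on single libraries: without water + Dex replicate 3 none of the 10 passed, without water + Dex replicate 2 or ZnSO4 + Dex replicate 1 only Gcg did, and without water + PBS replicate 1 there were 5. The call of Tac1 was also lost without water + Dex replicate 1, where its edgeR adjusted p was 0.061, and that of Gcg without the same library or without ZnSO4 + Dex replicate 2 or 3.

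Dex raised Chga and Sst. Averaged over water and ZnSO4 mice, 2 of the 10 genes were higher with Dex at an adjusted p under 0.05, Chga and Sst, against 10.4% of all genes, and 0 were lower, against 11.2%. With only 10 genes these counts are close to the shares over all genes. At an unadjusted p under 0.05, 6 of the 10 were higher, against 16% of all genes, and 0 were lower, against 17.4%. DESeq2 gave the same number, 2. None passed the fold cut-off, which 6.31% of all genes did. The median log2 fold change of the 10 was 0.26, beside -0.0014 over all genes, and 8 of 10 lay above 0, as did 49.8% of all genes.

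Chga counted 384, 448 and 492 in water + PBS mice and 518, 505 and 437 in ZnSO4 + PBS mice, against 651, 581 and 577 in water + Dex mice and 634, 771 and 884 in ZnSO4 + Dex mice. All 6 Dex mice lay above all 6 PBS mice, a separation met upwards in 4.85% of all genes. The averaged Dex effect was 0.55 ± 0.091 on the log2 scale, or 1.46-fold, with an edgeR adjusted p of 0.0010. The increase was 0.45 ± 0.13 in water mice and 0.65 ± 0.13 in ZnSO4 mice, with edgeR adjusted p-values of 0.049 and 0.0055.

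Sst counted 211, 240 and 228 in water + PBS mice, 304, 258 and 273 in water + Dex mice, 309, 243 and 237 in ZnSO4 + PBS mice and 342, 392 and 364 in ZnSO4 + Dex mice. Within each drinking group the Dex mice lay above the PBS mice. Such a separation of 3 mice from 3 upwards was met in 15.2% of all genes in water mice and 14.2% in ZnSO4 mice. Across both drinking groups the 6 Dex mice, from 258 upwards, overlapped the 6 PBS mice, which reached 309. The averaged Dex effect was 0.39 ± 0.083, or 1.31-fold, with an edgeR adjusted p of 0.0056, and both this call and that of Chga held in 12 of 12 fits that left out 1 library. Within ZnSO4 mice Sst rose by 0.48 ± 0.12, with an edgeR adjusted p of 0.018, which was lost without ZnSO4 + PBS replicate 2 or 3 or ZnSO4 + Dex replicate 2.

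In water mice, Dex against PBS, 1 of the 10 genes passed an adjusted p of 0.05, against 9.93% of all genes, and 0 passed the fold cut-off, against 4.42%. In ZnSO4 mice it was 2 of 10, against 13.7%, and 0 with the cut-off, against 5.81%. These counts too are close to the shares over all genes. The call of Chga in water mice held in only 3 of 12 fits that left out 1 library, with edgeR adjusted p-values from 0.029 to 0.16. Nts at 0.23 ± 0.083, Gcg at 0.24 ± 0.097 and Pyy at 0.28 ± 0.13 under averaged Dex had edgeR adjusted p-values of 0.073, 0.10 and 0.14. Tac1, at -0.14 ± 0.13, and Sct, at 0.13 ± 0.096, had 0.46 and 0.37.

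The effects estimated for Gip and Ghrl, hormones of the upper small intestine and stomach, changed when a single library was left out. Gip, the gene of the insulin-releasing hormone GIP, counted 24.3, 38.1 and 46.6 in water + PBS mice, 25.6, 32.4 and 32.4 in water + Dex mice, 46.2, 10.98 and 2.78 in ZnSO4 + PBS mice and 47.7, 41.3 and 22.4 in ZnSO4 + Dex mice. Ghrl, the gene of the appetite hormone ghrelin, counted 17.5, 18.1 and 11.4, then 14.5, 25.9 and 27.0, then 34.9, 14.6 and 10.2, then 30.1, 45.2 and 29.9 in the same order of groups. In both genes ZnSO4 + PBS replicate 1 lay above replicates 2 and 3 of its group. For Gip, replicates 2 and 3, with 12 and 3 raw counts, lay below every other library. Replicate 1, at 46.2, lay within the range of the other groups. Without replicate 1 the averaged Dex effects became 1.07 for Gip and 1.01 for Ghrl, with edgeR adjusted p-values of 0.043 and 0.015. With it they were 0.31 ± 0.45 and 0.67 ± 0.30, with 0.67 and 0.14. Without it Nts passed too with averaged Dex, at 0.32, with an edgeR adjusted p of 0.0027. Gip then also came out lower with zinc in PBS mice, at -2.38, with an edgeR adjusted p of 0.0497. For Gip the ZnSO4 + PBS group in these refits held only the low counts of replicates 2 and 3. Cck, the gene of cholecystokinin, which empties the gallbladder, stayed between 24.9 and 46.2 normalised counts in all 12 libraries, with no difference detectable at this depth.

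The drink and the injection were not shown to change each other's effect on any of the 10 genes. The interaction, tested in the same fit, had an adjusted p under 0.05 for 0 of the 10 genes and for 0% of all genes. At an unadjusted p under 0.05 it was 0 of 10, against 4.98% of all genes, and DESeq2 gave 6 genes at an adjusted p under 0.05, none of them a hormone gene. The SE of the interaction ran from 0.17 for Sst to 0.89 for Gip on the log2 scale, so that with 3 mice a group differences in response of that order could not be seen.

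**Figure D3:**
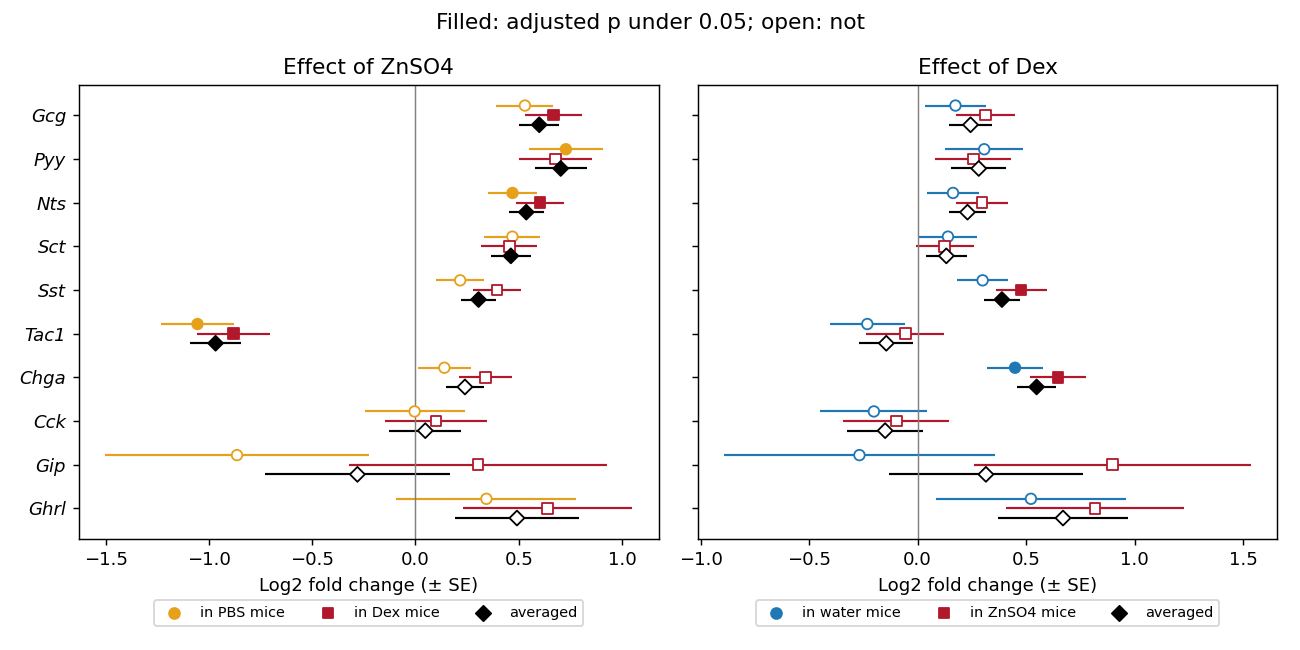
Log2 fold changes (points) with SE (bars) of the 10 hormone genes for ZnSO4 within PBS mice, within Dex mice and averaged (left), and for Dex within water mice, within ZnSO4 mice and averaged (right). Filled points had an adjusted p under 0.05: Gcg, Pyy, Nts, Sct, Sst and Tac1 for averaged ZnSO4, and Sst and Chga for averaged Dex.

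The programme that makes and stores the hormones was read from other gene lists. Their counts stand beside the shares of all genes past an adjusted p of 0.05: 6.24% higher and 6.52% lower with averaged zinc, and 10.4% higher and 11.2% lower with averaged Dex. Of 12 transcription factors of the enteroendocrine lineage 9 were tested, and 9 of 9 lay above 0 with zinc, as 49.1% of all genes did, with a median of 0.39. The averaged zinc effect passed an adjusted p of 0.05 for 2 of the 9, against 6.24% higher over all genes: Pax6, which drives proglucagon transcription, at 0.75 ± 0.19, and the endoderm factor Foxa2, at 0.39 ± 0.11, with edgeR adjusted p-values of 0.022 and 0.041. Pax6 counted 7.56 to 12.4 in the 6 water mice and 12.04 to 24.02 in the 6 zinc mice, with a slight overlap. With Dex, 0 of the 9 passed in either direction, and the median was -0.047.

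Of 15 genes of hormone processing and secretory granules, 3 were higher and 0 lower with zinc, against 6.24% and 6.52% of all genes, with 14 of 15 above 0 and a median of 0.31. They were Scg3, a granule protein that binds chromogranin A, at 0.43 ± 0.093, Cpe, the carboxypeptidase that trims prohormones, at 0.41 ± 0.12, and Pam, the enzyme that amidates peptides such as secretin and peptide YY, at 0.25 ± 0.063. Their edgeR adjusted p-values were 0.012, 0.047 and 0.023. With Dex 3 of the 15 were higher and 0 lower, against 10.4% and 11.2%: Pcsk1, the prohormone convertase that makes GLP-1 from proglucagon, at 0.61 ± 0.053, Ptprn2, a granule membrane protein, at 0.37 ± 0.11, and Scg3 at 0.34 ± 0.093, with edgeR adjusted p-values of 9.5e-06, 0.037 and 0.023. Pcsk1 counted 266 to 353 in the 6 PBS mice and 447 to 512 in the 6 Dex mice, with no overlap. It rose by 0.70 ± 0.076 in water mice and by 0.51 ± 0.075 in ZnSO4 mice, with edgeR adjusted p-values of 0.00012 and 0.00082.

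Enterochromaffin cells, which share Tac1 with neurons, make serotonin. Of 6 genes of the serotonin pathway, 3 were higher and 1 was lower with averaged zinc, against 6.24% and 6.52% of all genes. With averaged Dex 1 was higher and 1 lower, against 10.4% and 11.2%. Slc18a1, the vesicular monoamine transporter of these cells, rose by 0.53 ± 0.089 and Ddc, the decarboxylase that makes serotonin, by 0.46 ± 0.087, with edgeR adjusted p-values of 0.0027 and 0.0055. Maob, which rose by 1.36 ± 0.11 with an edgeR adjusted p of 3.4e-05, degrades monoamines and does not make them. Gch1, which starts the synthesis of the cofactor of tryptophan hydroxylase, fell by 0.73 ± 0.11, with an edgeR adjusted p of 0.0015. Tph1, the tryptophan hydroxylase itself, did not pass with averaged zinc, at 0.34 ± 0.12 with an edgeR adjusted p of 0.082. It rose by 0.41 ± 0.12 with Dex, whereas Ddc fell by 0.33 ± 0.087, with edgeR adjusted p-values of 0.029 and 0.019.

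Among 8 tested receptors by which enteroendocrine cells sense the lumen, 1 was higher and 1 lower with averaged zinc, against 6.24% and 6.52% of all genes. Within PBS mice 0 were higher and 1 lower with zinc, against 2.11% and 2.54% of all genes. Within Dex mice 1 was higher and 0 lower, against 1.83% and 2.54%. Ffar2, the receptor of short-chain fatty acids, rose by 0.51 ± 0.13, and Ffar4, the receptor of long-chain fatty acids, fell by 0.55 ± 0.14, with edgeR adjusted p-values of 0.026 and 0.028. Ffar4 was also the only 1 of the 8 that passed with averaged Dex, where it rose by 1.73 ± 0.15, with an edgeR adjusted p of 6.7e-06. Its counts were 71.7 to 94.5 in ZnSO4 + PBS mice and 134 to 166 in water + PBS mice, and after Dex 236 to 411 with ZnSO4 and 359 to 460 with water. Ffar2 counted 75.9 to 112 in water + PBS mice and 97.0 to 122 in ZnSO4 + PBS mice, which overlapped. After Dex it counted 52.9 to 72.4 with water and 98.3 to 126 with ZnSO4. Ffar2 and Ffar4 are also expressed outside enteroendocrine cells.

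Of 13 tested receptors and peptidases that carry or end the hormones' action, out of 26 listed, 2 were higher and 0 lower with zinc, against 6.24% and 6.52% of all genes: Glp2r, the receptor of GLP-2, at 0.66 ± 0.15, and Tacr2, the receptor of neurokinin A, at 0.76 ± 0.22, with edgeR adjusted p-values of 0.013 and 0.043. With Dex 3 of the 13 were higher and 0 lower, against 10.4% and 11.2%: the somatostatin receptor Sstr3 at 1.41 ± 0.31, Glp2r at 0.51 ± 0.15 and the neurotensin-binding sorting receptor Sort1 at 0.24 ± 0.058, with edgeR adjusted p-values of 0.0065, 0.029 and 0.011. Sstr3 and Tacr2 were of low level, at 3.66 to 27.0 and 8.03 to 31.1 normalised counts per library. Of 7 other peptide genes tested, none passed with zinc, and Penk, the gene of the enkephalins, rose by 0.59 ± 0.19 with Dex, with an edgeR adjusted p of 0.043.

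**Figure D4:**
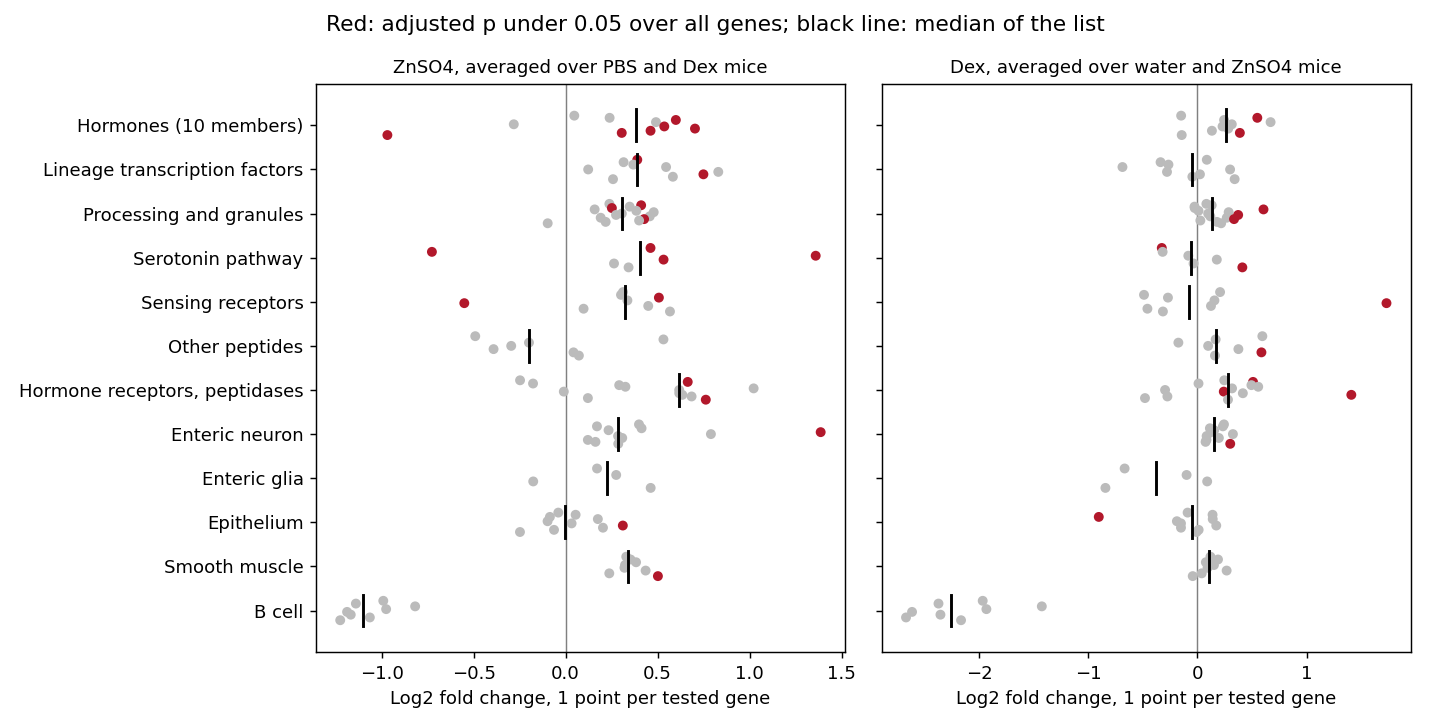
Log2 fold changes of the tested genes of each list (1 point a gene, red at an adjusted p under 0.05 over all genes, black line at the median of the list) for averaged ZnSO4 (left) and averaged Dex (right). The median of the hormone genes was 0.38 with zinc and 0.26 with Dex, and Tac1 is the red point furthest to the left in the top row of the left panel.

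Markers of other cells of the wall were read in the same way. Past an adjusted p of 0.05 with averaged zinc were 6.24% of all genes upwards and 6.52% downwards, and with averaged Dex 10.4% and 11.2%. Of 11 tested enteric neuron markers 11 lay above 0 with zinc, with a median of 0.29, as 49.1% of all genes did. Only Ret, a receptor of enteric neurons and their progenitors, passed, at 1.39 ± 0.13 with an edgeR adjusted p of 7.5e-05. The summed neuron markers were 775 to 950 normalised counts in water mice and 953 to 1470 in zinc mice, while Tac1 was lower in zinc mice. Without Ret, a choice made after its values were seen, the sums were 586 to 734 and 641 to 909 and overlapped. Uchl1 was the only neuron marker that passed with Dex, at 0.30 ± 0.099 with an edgeR adjusted p of 0.0497. Of 4 glia markers none passed with either treatment. The part of neurons in the Tac1, Sst and granule gene values was not tested.

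Of 8 smooth muscle markers 8 lay above 0 with zinc, as 49.1% of all genes did, with a median of 0.34. Only Tagln passed, against 6.24% of all genes higher, at 0.50 ± 0.14 with an edgeR adjusted p of 0.037. The sums of these markers were highest in ZnSO4 + PBS replicate 3 and ZnSO4 + Dex replicate 2, at 39507 and 38763. They were 19486 to 31232 in the other 10 libraries. Without both libraries, Gcg, Pyy, Nts, Sct and Tac1 still passed with averaged zinc, at 0.52, 0.66, 0.57, 0.39 and -0.98, with edgeR adjusted p-values of 0.013, 0.021, 0.0042, 0.040 and 0.0044, while Sst had 0.054. Tac1 within Dex mice then had 0.057. Chga and Sst still passed with averaged Dex, at 0.51 and 0.33, with 0.0062 and 0.029. With the smooth muscle level as a covariate, Gcg, Pyy, Nts and Tac1 kept the averaged zinc call, and Sct and Sst, with edgeR adjusted p-values of 0.069 and 0.065, lost it.

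B cell markers differed between libraries, with sums from 132 to 6954, and 8 of 8 lay below 0 with zinc and with Dex, as 50.9% and 50.2% of all genes did, with none past the threshold. With their level as a covariate, the averaged zinc and Dex calls were kept, and Chga passed with averaged zinc at 0.29, with an edgeR adjusted p of 0.026. Of 10 pan-epithelial markers 1 passed with zinc, Krt18 at 0.31 ± 0.077, and 1 with Dex, Cdx2 at -0.90 ± 0.062, with edgeR adjusted p-values of 0.022 and 1.4e-06. For these and the enterocyte lists below, 6.24% of all genes were higher and 6.52% lower with averaged zinc. With averaged Dex the shares were 10.4% and 11.2%. The distal ileal enterocyte genes summed to 60860 to 117357 normalised counts per library. Of 5 distal ileal enterocyte genes none passed with zinc, and Slc10a2, the ileal bile acid transporter, rose by 1.04 ± 0.16 with Dex. With averaged zinc 3 of the 5 lay below 0 and 2 above, with a median of -0.28. Of 6 tested enterocyte genes of the upper intestine Slc40a1 and Adh6a fell with zinc, by 0.72 ± 0.099 and 1.40 ± 0.19. With averaged zinc 5 of the 6 lay below 0, as 50.9% of all genes did, and 1 above, with a median of -1.06. With averaged Dex 1 of the 6 was higher, Adh6a at 4.59 ± 0.20, and 2 were lower, Slc40a1 at -0.95 ± 0.099 and Gata4 at -2.15 ± 0.56, with edgeR adjusted p-values of 4.4e-08, 3.3e-05 and 0.017. Gata4 was of low level, at 1.92 to 62.2 normalised counts per library. The genes of the upper intestine summed to 1245 to 2842 in PBS mice and 2490 to 6236 in Dex mice, and without Adh6a, again left out after its values were seen, to 1179 to 2601 and 713 to 1419. In water and zinc mice they summed to 2138 to 6236 and 1245 to 3606, and without Adh6a to 1227 to 2601 and 713 to 1513. The part of differences in the sampled stretch of ileum in the hormone values was not tested. The stomach genes were near 0, with sums of 1 to 8 normalised counts, and the insulin genes Ins1 and Ins2 had 0 and 1 reads in all libraries together. Of 14 pancreatic genes only Iapp and Cela1 reached the tested set, and neither passed with averaged zinc or Dex.

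Across the 12 libraries, which share their treatments in groups of 3, the genes closest to Gcg, other than hormone genes, were Klk1, Slc44a3 and Krt18, with a Pearson's r of 0.979, 0.976 and 0.960, and those closest to Tac1 were Ssr1, Psme2b and Steap1, with 0.964, 0.963 and 0.961. For Pyy they were Gsta4, Hmox2 and Gbe1, for Sct Gsta4, Sult1c2 and S100a1, for Nts Capn9, Lancl2 and Zfp358, for Sst 9530018F02Rik, Slc7a8 and Acsl1, and for Chga Rabggtb, Gclc and Mapre2, with r between 0.910 and 0.955. For the 3 genes of lowest level r was lower: Zswim7, Mef2a and Pknox1 for Cck, with r from 0.808 to 0.890, Noc3l, Zfp420 and Zfp595 for Gip, from 0.851 to 0.866, and 9530018F02Rik, Enpp3 and Acad10 for Ghrl, from 0.869 to 0.876.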

How the data were processed

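In all, 12 ileum libraries were used, 3 per group, each taken as 1 mouse. According to the study's methods, the authors made stranded single-end libraries on an Illumina sequencer, mapped the reads to mm10 with HISAT2 2.0.4 and counted them per gene with featureCounts, leaving out reads that map to several places. The annotation release and the strand setting of the counting are not given in the sources used here. The deposited values are raw counts per Ensembl gene, between 10760132 and 11827487 per library. Cck, Gip and Ghrl had only 3 to 49 raw counts per library, where counting error is large.

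Symbols, exon lengths and overlaps came from GENCODE M21 (GRCm38). Counts were fitted with edgeR 4.0.16 (R 4.3.3): TMM factors, filterByExpr with a minimum count of 10, 4 group means over all 12 libraries, quasi-likelihood tests and Benjamini-Hochberg adjustment over all 15938 genes tested. A gene was called at an adjusted p under 0.05 with a log2 fold change over 0.8 in size. The adjusted p alone is given as well. A normalised count is the count divided by the library's effective size and multiplied by the mean effective size of 11377723. The averaged effects are contrasts of the same 4 means, and the SE was taken as the log2 fold change divided by the root of F. The code was tested on simulated data. Replicates are separate samples by their labels, and p-values measure the spread between them. No pair of replicates agreed within sampling noise.

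The hormone genes, all other gene lists and the tests were chosen with earlier results of these data known. The 10 hormone genes are named in every comparison. Of each other list, the genes past an adjusted p of 0.05 in any comparison are named, and otherwise at most the 3 of highest level. For each hormone gene, the 3 genes, other than hormone genes, with the highest Pearson correlation of log2 depth-scaled counts (prior count 2) over the 12 libraries were named, among tested genes averaging at least 1 CPM. Alternatives were DESeq2 1.42.0, RLE and upper-quartile factors, other filters and fold cut-offs, a replicate block, fits on the compared groups, leaving out each library, and 3 alternatives added after the marker levels were seen.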

Additional observations from a re-analysis of the deposited data

How the results depend on the processing

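Each result was refitted under the alternatives. In 366 refits of a result past an adjusted p of 0.05, the direction was kept in 366 and the call in 298. Of 1137 refits of other results, 25 gained a call. Without a fold cut-off the called genes numbered 3 and 1 for ZnSO4 + PBS and for water + Dex against water + PBS, 3 for ZnSO4 + Dex against water + Dex, 2 for ZnSO4 + Dex against ZnSO4 + PBS, 6 for averaged ZnSO4 and 2 for averaged Dex. With a cut-off of 1 the call of Tac1 was lost under averaged ZnSO4 and in Dex mice (0 genes each).

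Counts at the adjusted p alone moved as follows. DESeq2 gave 5 genes for zinc in PBS mice and 5 in Dex mice, where edgeR gave 3 each. Fits on the compared groups gave 1 for zinc in PBS mice and 1 for Dex in ZnSO4 mice. Upper-quartile factors gave 0 for Dex in water mice. Same-numbered replicates did not deviate together (median correlation -0.053 over 18 pairs, 0.020 over 36 differently numbered pairs), so the numbers were not taken as pairs. The replicate block gave 1 gene for zinc in PBS mice and 0 for Dex in water mice. A smooth muscle covariate gave 1 gene for zinc in PBS mice and 1 in Dex mice, where 0 were called, and a B cell covariate called 2 in PBS mice. Leaving out both libraries richest in smooth muscle markers gave 1 gene for zinc in Dex mice (0 called) and 0 for Dex in ZnSO4 mice. The cause of these changes was not tested.

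Leaving out 1 library at a time, the counts called and past the adjusted p ran from 1 to 2 and 1 to 4 for zinc in PBS mice, 0 to 1 and 0 to 5 for zinc in Dex mice, 0 to 2 and 1 to 5 for Dex in ZnSO4 mice, 1 to 2 and 5 to 7 for averaged ZnSO4, and 0 to 2 and 2 to 5 for averaged Dex. For Dex in water mice they were 0 and 0 to 1.

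Only uncalled values reversed. The log2 fold change of Cck for zinc in PBS mice, -0.0044, became 0.0059 with DESeq2, 0.0056 with RLE factors, 0.022 with upper-quartile factors, 0.00655 with all genes of at least 1 count, 0.011 with the replicate block, 0.00839 in the compared groups, 0.071 without both muscle-rich libraries, 0.082 with the smooth muscle covariate and 0.00858 with the B cell covariate. The averaged ZnSO4 value of Gip became 0.035 with the smooth muscle covariate. The interaction of Sct became 0.0054 with upper-quartile factors, and without both muscle-rich libraries those of Ghrl and Cck became -0.26 and -0.023. Leaving out 1 library, Cck ran from -0.18 to 0.11 for zinc in PBS mice, -0.089 to 0.35 for zinc in Dex mice, -0.16 to 0.025 for Dex in ZnSO4 mice, -0.041 to 0.18 for averaged ZnSO4 and -0.097 to 0.34 for the interaction. Ghrl ran from -0.33 to 0.66 for zinc in PBS mice and -0.019 to 0.97 for the interaction, and Tac1 from -0.18 to 0.089 for Dex in ZnSO4 mice and -0.033 to 0.32 for the interaction. The interactions of Sct and Pyy ran from -0.10 to 0.10 and from -0.18 to 0.17.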
